A study of Homo sapiens with 8 samples.

Results

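PAX6, LHX2, SIX3, ZIC1, PAX3, PAX7, SOX1, NES and NEUROG2 are 9 genes used as markers of neuroectoderm, out of 19122 autosomal protein-coding genes in the RefSeq table. Their regions were taken from 6 deposited lists of genomic regions: every region whose gene names, as the authors wrote them, included one of the 9. An unmarked name was read as a gene that the region overlaps and a name with a plus or minus mark as a flanking gene, and 186 captured and 16 control regions of 327994 regions in all carried such a name. The regions come from a pull-down of DNA by RNA oligos. RNA-free DNA of H1 cells, an established human embryonic stem cell line, was sonicated to 200 to 300 bp, and 6 to 7 µg of it was kept for 1 h at 37 °C with 20 pmol of a biotin-labelled RNA oligo in 50 mM KCl and 5 mM MgCl2. DNA held by the RNA was collected on streptavidin beads and freed with RNases. The groups were GATA6-AS TFR1, MEG3 TFR1, MEG3 TFR2 and no oligo, with 2 libraries from independent experiments in each, 8 libraries in all. GATA6-AS TFR1 is named for the transcript antisense to GATA6, and both MEG3 oligos for the long noncoding RNA MEG3. All groups used the same kind of DNA, which carried neither chromatin proteins nor RNA, so no gene activity was measured and the cell line's own markers could not be checked.

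A captured region had more signal with the oligo than with no oligo, and a control region had less. The authors gave 1 log2 ratio per region, oligo over no oligo, and no value per library, so the read depth, the spread between the 2 libraries and the error of a ratio are unknown. With no value per library there is no test over samples, and all counts and ratios below are descriptions of the deposited lists. The 3 comparisons share the no-oligo libraries, so resemblance between oligos is not independent. The input named in the study's design was not analysed here.

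Neuroectoderm is the part of the early embryo that forms the neural plate and, from it, the brain, the spinal cord and the neural crest. Its genes are mostly transcription factors that divide the plate into regions: SIX3, LHX2 and PAX6 in the forebrain and eye field, and ZIC1, PAX3 and PAX7 at the neural border and in the dorsal neural tube. SOX1 marks neural progenitors from early on, NES encodes nestin, an intermediate filament protein of those progenitors, and NEUROG2 drives progenitors towards neurons. The long noncoding RNAs that gave the oligos have been studied for triplex formation, in which RNA lies in the major groove of duplex DNA and pairs with a run of purines. A run made only of purines on one strand, and so only of pyrimidines on the other, is the kind of DNA known to take part in it.

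PAX7 was the member with by far the most captured DNA, and its promoter is shown for that reason beside that of LHX2, a member with a purine or pyrimidine run of the same length and no captured region on the window. Of the 9 members, 8 had a promoter window in the RefSeq table (GRCh38.p14), from 250 bases before the gene start to 50 bases after it. SIX3 was the member with no window there. In the windows below, written 5′ to 3′ on the gene's strand, capitals mark the longest unbroken stretch made only of purines or only of pyrimidines. LHX2 was chosen after its values were seen.
PAX7 (chr1:18630596-18630895, plus strand): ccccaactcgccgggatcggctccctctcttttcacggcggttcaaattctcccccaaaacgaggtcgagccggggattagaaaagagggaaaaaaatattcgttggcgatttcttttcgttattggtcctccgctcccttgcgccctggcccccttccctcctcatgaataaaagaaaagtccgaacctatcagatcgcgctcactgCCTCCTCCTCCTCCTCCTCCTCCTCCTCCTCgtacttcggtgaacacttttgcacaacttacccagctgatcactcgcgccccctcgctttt
LHX2 (chr9:124011518-124011817, plus strand): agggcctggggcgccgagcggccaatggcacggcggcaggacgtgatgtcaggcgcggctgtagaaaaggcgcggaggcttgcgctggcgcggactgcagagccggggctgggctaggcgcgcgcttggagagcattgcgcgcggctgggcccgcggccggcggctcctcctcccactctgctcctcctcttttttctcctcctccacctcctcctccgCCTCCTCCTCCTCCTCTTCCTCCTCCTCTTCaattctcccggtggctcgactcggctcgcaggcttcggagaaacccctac
The stretch was 31 bases long in both windows, at bases 209 to 239 in PAX7 and bases 220 to 250 in LHX2. The whole PAX7 window lay inside the GATA6-AS TFR1 captured region at chr1:18630401-18631150, with a log2 ratio of 1.58 or 3.0-fold, and its last 45 bases lay in the MEG3 TFR1 captured region at chr1:18630851-18631100, with a log2 ratio of 1.55 or 2.94-fold. No captured region of MEG3 TFR2 overlapped it, the nearest ending 2145 bp before the window. Over the LHX2 window there was no captured region of any oligo, and the nearest, from MEG3 TFR1, started 1433 bp beyond it. The PAX7 run thus lay inside the GATA6-AS TFR1 region and before the start of the MEG3 TFR1 region, and the LHX2 run lay in no captured region. The sonicated fragments were longer than the gap between the PAX7 run and the MEG3 TFR1 region. A fragment captured at that edge could carry the run, so positions in the window are no finer than the fragments. Whether the run bears on capture was not tested.

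For the other members whose window a captured region touched, capitals mark the bases inside that region.
PAX6 (chr11:31805952-31806251, minus strand): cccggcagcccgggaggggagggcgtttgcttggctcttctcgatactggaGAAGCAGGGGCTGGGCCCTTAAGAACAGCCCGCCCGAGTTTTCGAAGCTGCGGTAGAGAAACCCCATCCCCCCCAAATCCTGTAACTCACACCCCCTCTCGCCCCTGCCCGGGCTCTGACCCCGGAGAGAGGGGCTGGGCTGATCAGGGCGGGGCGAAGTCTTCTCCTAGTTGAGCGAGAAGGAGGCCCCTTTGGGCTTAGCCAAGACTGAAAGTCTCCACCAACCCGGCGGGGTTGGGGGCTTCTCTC
NES (chr1:156677358-156677657, minus strand): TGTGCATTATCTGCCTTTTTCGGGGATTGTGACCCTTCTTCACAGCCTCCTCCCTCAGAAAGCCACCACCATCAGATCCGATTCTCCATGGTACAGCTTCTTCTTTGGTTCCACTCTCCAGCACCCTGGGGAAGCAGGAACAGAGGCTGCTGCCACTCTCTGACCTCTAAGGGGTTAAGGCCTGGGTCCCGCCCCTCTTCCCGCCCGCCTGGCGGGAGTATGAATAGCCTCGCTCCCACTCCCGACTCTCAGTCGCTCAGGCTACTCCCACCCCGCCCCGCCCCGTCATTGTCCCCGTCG
PAX3 (chr2:222298949-222299248, minus strand): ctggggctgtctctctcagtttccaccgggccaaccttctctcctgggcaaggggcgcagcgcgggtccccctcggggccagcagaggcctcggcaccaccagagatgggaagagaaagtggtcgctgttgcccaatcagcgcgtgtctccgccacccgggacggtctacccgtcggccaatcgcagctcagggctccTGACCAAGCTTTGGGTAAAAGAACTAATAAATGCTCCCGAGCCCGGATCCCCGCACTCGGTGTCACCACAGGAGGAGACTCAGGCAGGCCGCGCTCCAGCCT
The PAX6 window shown is 1 of 9 that RefSeq gives for that gene's alternative starts, and 249 of its bases lay in the GATA6-AS TFR1 region at chr11:31805701-31806200, at 2.62-fold. All 300 bases of the NES window lay in the MEG3 TFR1 region at chr1:156677251-156677700, at 2.16-fold. For PAX3, 102 bases lay in the GATA6-AS TFR1 region at chr2:222298651-222299050, at 1.91-fold. These 3 regions were weaker than the PAX7 pair.

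The windows were searched on both strands for GAGAGA, for GGAGGA and for a purine or pyrimidine stretch of at least 12 bases. The 3 searches can hit the same bases. Among 21155 promoter windows of the RefSeq table, 21.4% held GAGAGA, 39.7% held GGAGGA and 45.2% held such a stretch. GGAGGA was present in the PAX7, NES, PAX3, LHX2, NEUROG2 and SOX1 windows and in 1 of the 9 PAX6 windows. GAGAGA was present in the PAX3 window and in 2 of the PAX6 windows, the one shown included. The longest stretch reached 17 bases in NEUROG2 and 13 bases in SOX1, 12 bases in PAX3 and in the PAX6 window shown, 11 bases in NES and 10 bases in ZIC1. Windows with and without captured DNA both held these letters. In PAX3 and in the PAX6 window shown, the 12-base stretch lay outside the captured bases, as did GAGAGA in PAX3. GGAGGA in PAX3 and GAGAGA in the PAX6 window shown lay inside them. As for PAX7, such positions are no finer than the fragments. The NES window, which lay wholly in captured DNA, had no stretch of 12 bases. Among the PAX6 windows without captured DNA the longest stretches were of 17 and 15 bases. Whether these letters bear on capture was not tested.

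With GATA6-AS TFR1 the lists named members in 85 captured and 10 control regions. MEG3 TFR1 gave 62 captured and 3 control regions, and MEG3 TFR2 gave 39 captured and 3 control regions. The captured regions were 8.5, 20.7 and 13.0 times the control regions in that order of oligos, where the whole lists gave 2.88, 7.09 and 6.72. PAX7 alone carried 103 of the 186 captured regions, 55.4%. Without PAX7 the captured regions numbered 38, 28 and 17, against 7, 2 and 2 control regions, which is 5.43, 14.0 and 8.5 times. With so few control regions, a single one more or less would move the MEG3 quotients far, so they are imprecise.

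All 9 members were named by a captured region of GATA6-AS TFR1 and all 9 by one of MEG3 TFR1, where 79.6% and 77.3% of autosomal protein-coding genes were. With MEG3 TFR2 it was 8 of 9, against 74.6% of genes, and SIX3 was the member without. Since most genes were named somewhere in each captured list, being named at all says little of the members. As overlapped genes, 6 members were named with GATA6-AS TFR1, then 6 with MEG3 TFR1 and 3 with MEG3 TFR2, against 50.5%, 43.8% and 42.1% of genes. The control lists named 7 members with GATA6-AS TFR1, 3 in the MEG3 TFR1 list and 3 in that of MEG3 TFR2, against 53.9%, 28.5% and 26.2% of genes. With 9 genes, such counts are too coarse to set the members apart from the background.

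The size of the ratios was also that of the lists. The median log2 ratio of the members' captured regions was 1.43 for GATA6-AS TFR1, then 1.46 for MEG3 TFR1 and 1.52 for MEG3 TFR2, beside 1.34, 1.41 and 1.44 over the whole captured lists. Without PAX7 the members' medians were 1.40, 1.35 and 1.31. The members therefore differ below mainly in how many regions they had and where.

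**Figure D1:**
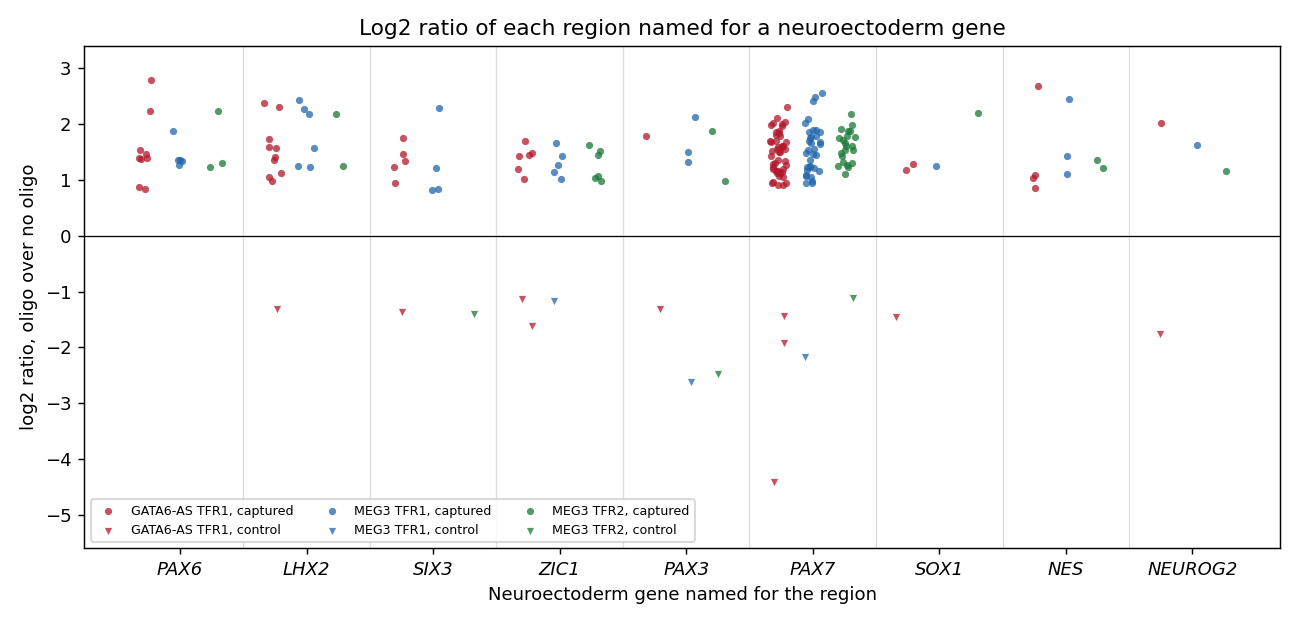
Log2 ratio (oligo over no oligo, vertical axis) of each region named for 1 of the 9 neuroectoderm genes (horizontal axis), with captured regions as circles and control regions as triangles, coloured by oligo. PAX7 holds 103 of the 186 captured regions, and the lowest control value, -4.42, lies beside PAX7 with GATA6-AS TFR1.

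The authors' names did not always follow the gene under the region, which touches every count above. Of 136 captured regions that overlapped a member's RefSeq gene, 17 were not named for it, and neither were 4 of 7 control regions. NES was affected most, with 8 of its 10 captured regions named for other genes or for none, among them the region over its promoter window, which was named for HDGF. PAX3 had 4 of 6 such regions, LHX2 3 of 14, and SOX1 and NEUROG2 1 of 1 each, while all regions over PAX6, SIX3, ZIC1 and PAX7 bore the right name. Without PAX7, 17 of 58 captured regions over a member were not named for it. Over all protein-coding genes an overlapping gene was named in 71.5% of overlaps with GATA6-AS TFR1, 70.4% in the MEG3 TFR1 list and 70.6% in that of MEG3 TFR2 in the captured lists. In the control lists those shares were 74.4%, 81.8% and 81.7%. The opposite also occurred: ZIC1 was given as overlapped by 9 regions outside its RefSeq gene, up to 54.1 kb away. Counts over the RefSeq gene are therefore given beside the named ones. GATA6-AS TFR1 comes to 67 captured and 5 control regions by position, MEG3 TFR1 to 48 and 1, and MEG3 TFR2 to 21 and 1. With 1 kb added to each side of the RefSeq gene, captured regions reached 9, 7 and 6 members, against 73.9%, 66.0% and 62.5% of genes. With 5 kb added it was 9, 8 and 7 members, against 79.4%, 74.0% and 70.7% of genes, and SIX3 then had a MEG3 TFR2 region too.

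**Figure D2:**
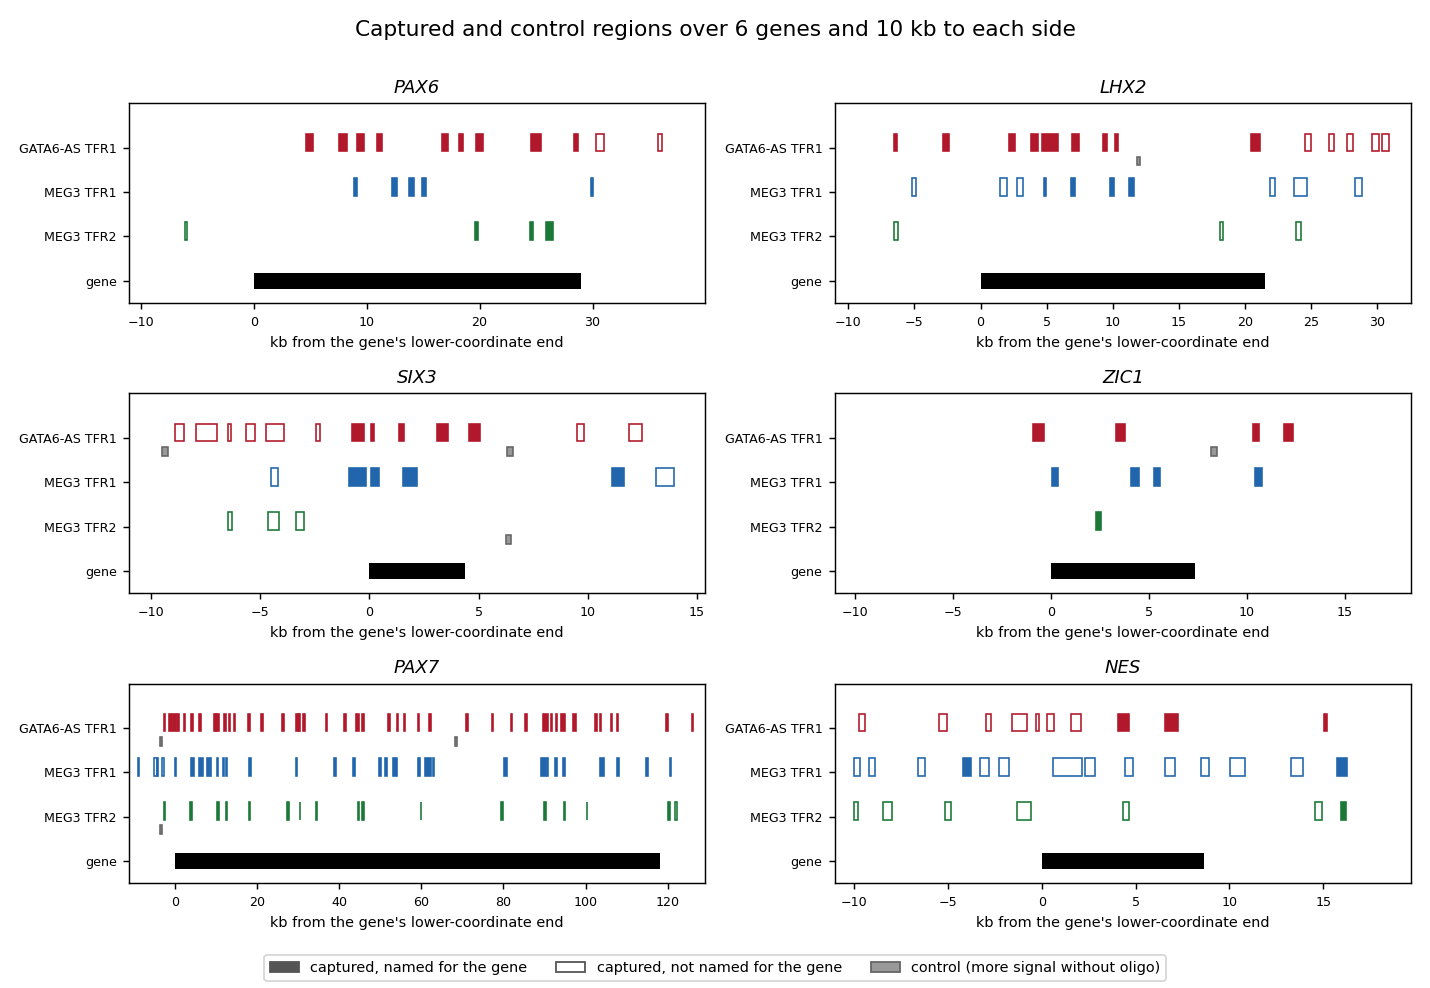
Captured and control regions over 6 of the genes and 10 kb to each side (horizontal axis, kb from the gene's lower-coordinate end), 1 row per oligo, with the gene as a black bar. Filled coloured boxes are captured regions named for the gene, open boxes are captured regions not named for it, and grey boxes are control regions. Captured regions run along the whole of PAX7, and 8 of the 10 over NES are open.

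Of the forebrain and eye genes, PAX6, the paired-box factor needed for eye development, had 17 captured regions named for it and 0 control regions. The RefSeq gene spans chr11:31789026-31817961 (28.9 kb, minus strand). GATA6-AS TFR1 had 9 regions, all over the gene, with log2 ratios of 0.83 to 2.79 and a median of 1.40. MEG3 TFR1 had 5 regions, from 1.27 to 1.88, and MEG3 TFR2 had 3 regions, from 1.24 to 2.24. GATA6-AS TFR1, which also had the longest captured list, thus had both the most regions and the highest. Its strongest region, at chr11:31798201-31798800, reached 6.93-fold, and the strongest of MEG3 TFR1, at chr11:31797901-31798150 with 3.68-fold, ended 50 bp before it. The strongest of MEG3 TFR2 lay elsewhere, at chr11:31808651-31808900 with 4.71-fold, where the GATA6-AS TFR1 region read 2.75-fold. Both oligos also had a region at chr11:31813501-31814500, where GATA6-AS TFR1 read 1.54 and MEG3 TFR2 1.31 on the log2 scale. Of the 17 regions, 5 carried the name of RCN1 as well, so the name alone does not place them at 1 gene.

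LHX2, a LIM-homeobox factor of the eye field and cortex, spans chr9:124011768-124033301 (21.5 kb, plus strand) and had 18 captured regions and 1 control region by name. GATA6-AS TFR1 gave 10 regions from 0.98 to 2.38, MEG3 TFR1 6 regions from 1.23 to 2.43, and MEG3 TFR2 2 regions, of 1.26 and 2.18. The regions of MEG3 TFR2 both lay outside the gene, 65.3 kb and 16.7 kb from it. Over the gene itself it had 1 region, at chr9:124029851-124030100 with 3.18-fold, which the authors named for other transcripts. GATA6-AS TFR1 and MEG3 TFR1 shared positions in the gene body: at chr9:124016451-124017600 their log2 ratios were 1.59 and 2.27, and at chr9:124018601-124019250 they were 1.73 and 2.43. MEG3 TFR1 was the higher of the pair at both places, but over narrower regions, 150 bp against 1150 bp and 350 bp against 600 bp. A control region of GATA6-AS TFR1, of -1.25, also lay inside the gene, at chr9:124023601-124023850, and was not named for LHX2.

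SIX3, the sine oculis homeobox factor of the anterior neural plate, is a short gene at chr2:44941702-44946071 (4.37 kb). GATA6-AS TFR1 had 5 regions for it, with log2 ratios of 0.94, 1.75, 1.46, 1.23 and 1.34. MEG3 TFR1 had 4, with 1.21, 2.28, 0.82 and 0.83, and MEG3 TFR2 had none. The strongest region of both oligos started at the same base, at chr2:44941751-44941900 for GATA6-AS TFR1 with 3.35-fold and at chr2:44941751-44942150 for MEG3 TFR1 with 4.86-fold. Past the upper end, 1.93 kb away, lay a control region of GATA6-AS TFR1, of -1.37 at chr2:44948001-44948300, and one of MEG3 TFR2, of -1.41 at chr2:44947951-44948200. Of the 7 regions over SIX3 by the authors' names, 4 were also named for its antisense transcript SIX3-AS1, and the lists do not tell the 2 apart.

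Of the border and dorsal genes, ZIC1, a zinc-finger factor of the neural plate border and dorsal neural tube, spans chr3:147409365-147416719 (7.36 kb, plus strand). It had 17 captured and 3 control regions by name. GATA6-AS TFR1 had 6 captured regions from 1.02 to 1.70, MEG3 TFR1 had 5 from 1.02 to 1.66, and MEG3 TFR2 had 6 from 0.98 to 1.63. The 3 highest values, 3.26-fold, 3.16-fold and 3.09-fold, were the narrowest spread over oligos of any member with regions from all 3. They were at different places: the strongest region of MEG3 TFR1, at chr3:147409451-147409750, lay 36 bp past the promoter window, that of GATA6-AS TFR1, at chr3:147419701-147420000, lay 9.95 kb further on, and that of MEG3 TFR2, at chr3:147470801-147471150, lay 54.1 kb past the gene. The GATA6-AS TFR1 and MEG3 TFR1 regions met at chr3:147419701-147420150, with 1.70 and 1.43. Over the RefSeq gene alone the 3 oligos had 1, 3 and 1 captured regions and no control region.

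PAX3 and PAX7 are closely related paired-box factors of the dorsal neural tube, the neural crest and muscle progenitors, and their genes are of like length, 99.1 kb and 118 kb. Their captured DNA was not alike. PAX7 had 38 captured regions over the gene with GATA6-AS TFR1, then 26 with MEG3 TFR1 and 14 with MEG3 TFR2, while PAX3 had 3, 2 and 1. Per 10 kb of gene that is 3.22, 2.20 and 1.19 for PAX7 beside 0.303, 0.202 and 0.101 for PAX3. Among 3210 autosomal protein-coding genes of at least 100 kb, PAX7 ranked 28 by captured regions per 10 kb with GATA6-AS TFR1, 19 in the MEG3 TFR1 list and 67 in that of MEG3 TFR2. The medians of those genes were 0.201, 0.217 and 0.198 per 10 kb. Among 1384 genes within 1.25 times its length, 20, 13 and 44 had more regions than PAX7, and the median was 3 for each oligo. PAX3 stood at the median of its own length class with GATA6-AS TFR1 and MEG3 TFR1 and below it with MEG3 TFR2, with 635, 760 and 973 of 1567 such genes above it.

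Within PAX7 (chr1:18630846-18748866, plus strand) the captured regions covered 16.9 kb with GATA6-AS TFR1, then 13.8 kb with MEG3 TFR1 and 4.50 kb with MEG3 TFR2, or 14.3%, 11.7% and 3.81% of the gene. Cut into 4 equal parts from its start, the gene held 13, 10, 6 and 9 regions of GATA6-AS TFR1, 9, 6, 4 and 7 of MEG3 TFR1, and 5, 4, 2 and 3 of MEG3 TFR2. The first part had the most and the third the fewest with each oligo. Log2 ratios over the gene ran from 0.90 to 2.31 with a median of 1.57 for GATA6-AS TFR1, from 0.95 to 2.56 with a median of 1.60 for MEG3 TFR1, and from 1.11 to 2.19 with a median of 1.57 for MEG3 TFR2. The medians of the 3 oligos were close to each other. The strongest regions were at different places: chr1:18633101-18633450 with 4.97-fold for GATA6-AS TFR1, chr1:18738551-18738950 with 5.92-fold for MEG3 TFR1, and chr1:18676451-18676850 with 4.55-fold for MEG3 TFR2.

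At 5 places in PAX7 all 3 oligos had a captured region, and the log2 ratios are given in the order GATA6-AS TFR1, then MEG3 TFR1 and MEG3 TFR2. They were 1.14, 1.09 and 1.24 at chr1:18634551-18635550, and 1.97, 2.02 and 1.75 at chr1:18640901-18641700. They were 1.5, 1.65 and 1.54 at chr1:18648801-18649450. At chr1:18720101-18721700, where MEG3 TFR1 had 2 regions, the highest were 1.55, 1.86 and 1.99, and at chr1:18724901-18725850 they were 1.35, 1.44 and 1.26. All are set against the same no-oligo libraries. The captured regions named for PAX7 formed 76 places, overlapping regions being counted as 1 place. Over the whole autosomal lists, 6070 of 223301 places had all 3 oligos. Places with 2 or more oligos made up 27.6% for PAX7, against 15.9% over the whole lists. For the other members it was 12.2% of 74 places, below the share of the lists, although SIX3 had 3 of 6. No other member had a place with regions of all 3 that bore its name. By position NES had one, where the region of GATA6-AS TFR1 at chr1:156672851-156673400 read 1.03, that of MEG3 TFR1 at chr1:156673201-156673650 read 0.97 and that of MEG3 TFR2 at chr1:156673101-156673400 read 1.41, the last pair under other names.

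**Figure D3:**
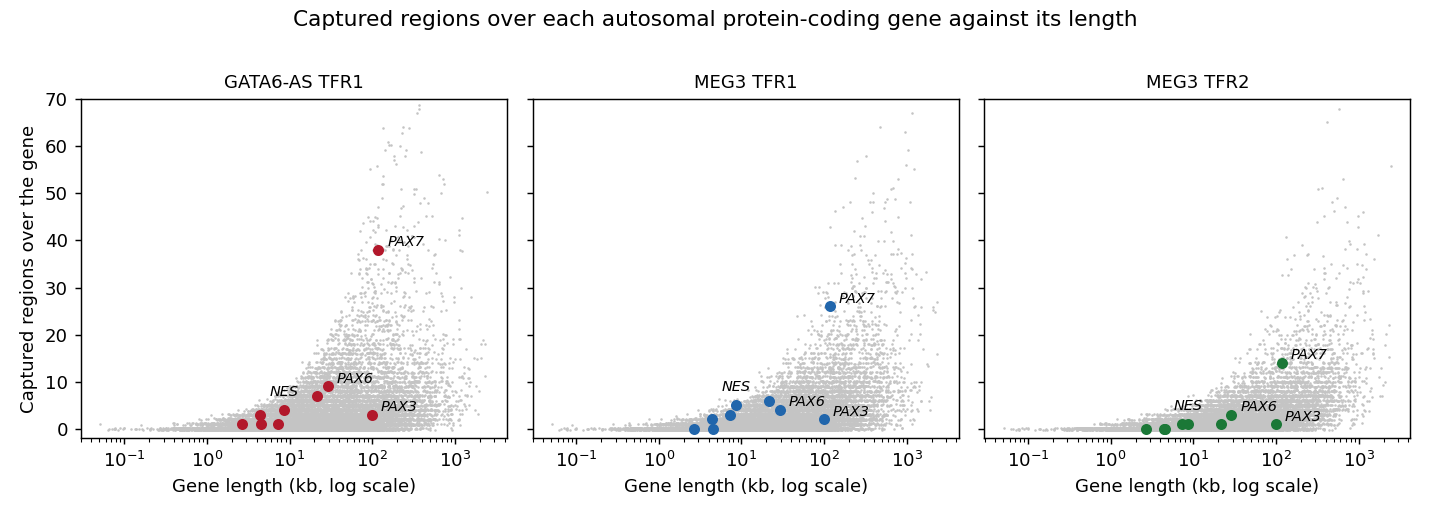
Captured regions over the RefSeq gene (vertical axis) against gene length (horizontal axis, kb, log scale) for autosomal protein-coding genes in grey and the 9 neuroectoderm genes in colour, 1 panel per oligo. PAX7, with 38, 26 and 14 regions, stands high for its length, and PAX3, with 3, 2 and 1, lies at or below the median of 3, 2 and 2 for its length. The axis stops at 70, which leaves out 16 genes for GATA6-AS TFR1, 7 in the MEG3 TFR1 list and 0 in that of MEG3 TFR2.

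PAX3 (chr2:222199887-222298998, minus strand) had 6 captured regions by name, of which 2 overlapped the gene, both with MEG3 TFR1: chr2:222245651-222246100 with a log2 ratio of 1.5 and chr2:222280051-222280350 with 2.13. GATA6-AS TFR1 had 1 named region, 37.8 kb from the gene, with 1.78. It had 3 more over the gene that bore other names, of 2.00, 0.98 and 0.93, the last being the promoter region above. MEG3 TFR2 had named regions of 0.97 and 1.87 outside the gene and one of 1.49 over it that was named for CCDC140. Control regions were nearly as many as captured ones for this gene, 5 against 6 in all. By position GATA6-AS TFR1 had 3 captured and 3 control regions over it, MEG3 TFR1 had 2 and 1, and MEG3 TFR2 had 1 and 1. At chr2:222270951-222271150 the control regions of MEG3 TFR1 and MEG3 TFR2 had log2 ratios of -2.62 and -2.49, 6.14-fold and 5.60-fold less signal with the oligo. A GATA6-AS TFR1 control region covered the same stretch, at chr2:222270851-222271200 with -1.74, and all of these ratios use the same no-oligo libraries.

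Of the progenitor genes, SOX1, a SoxB1 factor and one of the earliest markers of the neural plate, is an intronless gene at chr13:112067149-112071706 (4.56 kb, plus strand). By name it had only flanking regions: 2 with GATA6-AS TFR1 (1.17 and 1.28), 1 with MEG3 TFR1 (1.25) and 1 with MEG3 TFR2 (2.20). They lay 10.5 kb to 83.9 kb before the gene. By position GATA6-AS TFR1 also had a region inside it, at chr13:112067451-112067650, with 3.75-fold, 252 bp past the promoter window and not named for SOX1. That region was higher than either of the 2 that carried the gene's name. The strongest named one was of MEG3 TFR2, at chr13:112036501-112036800 with 4.59-fold, 30.3 kb before the gene.

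NES spans chr1:156668763-156677407 (8.64 kb, minus strand) and had 9 captured and 0 control regions by name. Over the gene, by position, GATA6-AS TFR1 had 4 captured regions, MEG3 TFR1 had 5 and MEG3 TFR2 had 1. The 5 of MEG3 TFR1 had log2 ratios of 1.14, 1.76, 0.97, 1.44 and 1.11, and none was named for NES. Of 1679 genes of like length, 198 had more regions than NES with GATA6-AS TFR1, 6 had more with MEG3 TFR1 and 356 had more with MEG3 TFR2, and the medians were 1, 1 and 0. The strongest regions by name were outside the gene: chr1:156683801-156683950 with 6.40-fold for GATA6-AS TFR1, 6.39 kb away, and chr1:156569351-156569600 with 5.44-fold for MEG3 TFR1, 99.2 kb away. The region of MEG3 TFR1 had 5 other protein-coding genes between it and NES, the 1 case of its kind among the members' 52 flanking captured names. For MEG3 TFR2 the strongest was chr1:156684701-156684950 with 2.55-fold, and a MEG3 TFR1 region of 2.70-fold covered the same place.

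NEUROG2, a proneural basic helix-loop-helix factor, is the shortest member, at chr4:112513516-112516180 (2.67 kb, minus strand). It had 1 flanking captured region per oligo: 4.07-fold with GATA6-AS TFR1, 3.71 kb away, 3.08-fold with MEG3 TFR1, 10.3 kb away, and 2.24-fold with MEG3 TFR2, 65.1 kb away. By position a GATA6-AS TFR1 region of 2.55-fold lay inside the gene, at chr4:112514551-112515050, under the name of ZGRF1. A control region of GATA6-AS TFR1 was named for NEUROG2, of -1.76, 41.2 kb away.

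Captured regions were then counted per 10 kb over each RefSeq gene and per 10 kb within 500 kb to both sides of it. With GATA6-AS TFR1 all 9 members were denser than their surroundings, where 45.4% of genes were. With MEG3 TFR1 it was 6 of 9, against 39.5% of genes, and with MEG3 TFR2 it was 3 of 9, against 38.5% of genes. The median ratio of gene to surroundings was 4.48, 2.54 and 0.714 for the members and 0.832, 0.653 and 0.596 for all genes. The members without a denser gene were PAX3, SOX1 and NEUROG2 with MEG3 TFR1, and LHX2, SIX3, PAX3, SOX1, NES and NEUROG2 with MEG3 TFR2. Members differ in length and several have 0 or 1 region over the gene, so a single region sets some of these ratios.

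The largest ratios of gene to surroundings were at ZIC1, PAX6, NEUROG2 and SIX3. PAX6 had 3.11 regions of GATA6-AS TFR1 per 10 kb against 0.17 around it, 18.3 times, and 121 of 19045 genes had a higher ratio. ZIC1 had 4.08 regions of MEG3 TFR1 per 10 kb against 0.10 around it, 40.8 times, with 15 of 19033 genes higher, from 3 regions over the gene. SIX3 had 6.86 regions of GATA6-AS TFR1 per 10 kb against 0.54 around it, 12.7 times, and NEUROG2 reached 12.9 times with the same oligo from 1 region. PAX7, with the most regions, lay in dense DNA: its ratios were 2.62 with GATA6-AS TFR1, then 2.04 with MEG3 TFR1 and 1.67 with MEG3 TFR2. NES lay in the densest, where GATA6-AS TFR1 had 4.63 per 10 kb over the gene against 1.95 around it. MEG3 TFR1 had 5.78 against 2.28, and MEG3 TFR2 had 1.16 against 1.44.

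**Figure D4:**
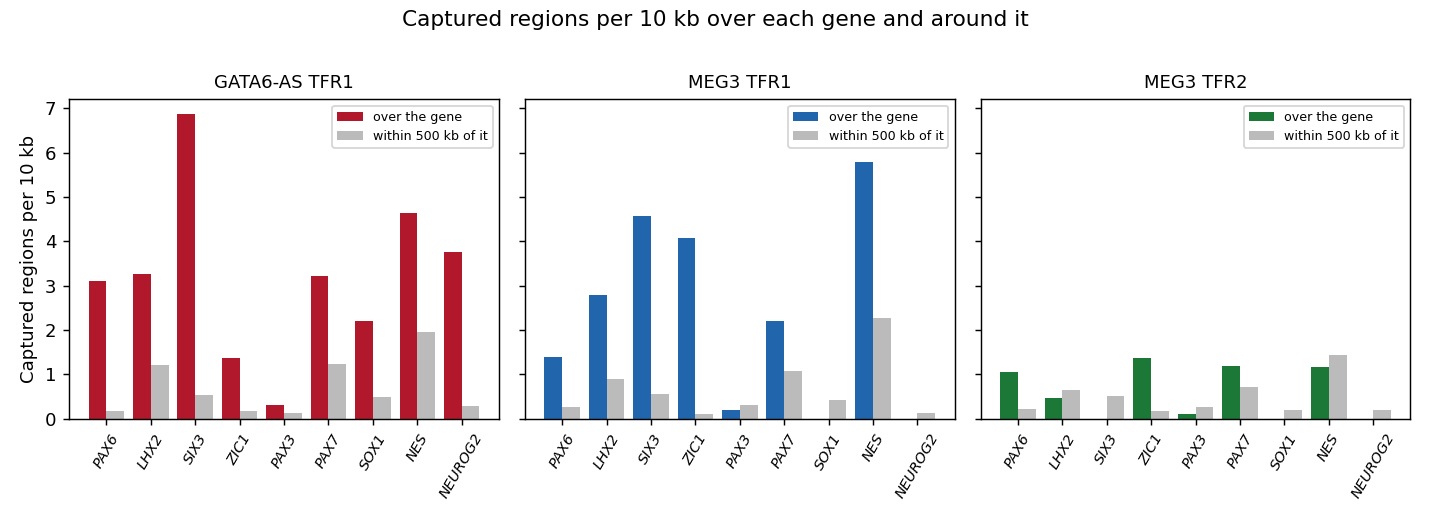
Captured regions per 10 kb over each RefSeq gene (coloured bars) and within 500 kb to both sides of it (grey bars), 1 panel per oligo. With GATA6-AS TFR1 the coloured bar is the higher in all 9 genes, with MEG3 TFR1 in 6 and with MEG3 TFR2 in 3.

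Near the gene start or end the counts also depended on the oligo. Within 1 kb of either end of the RefSeq gene, 8 members had a captured region of GATA6-AS TFR1, 6 one of MEG3 TFR1 and 1, NES, one of MEG3 TFR2. The shares of all genes were 48.8%, 29.4% and 23.2%. On the promoter window itself it was 3 of 8 members with GATA6-AS TFR1 (PAX6, PAX3 and PAX7), 2 with MEG3 TFR1 (PAX7 and NES) and 0 with MEG3 TFR2, against 20.5%, 8.74% and 4.11% of genes. No control region lay on a member's window, where the shares of all genes were 0.709%, 0.252% and 0.272%. PAX6 had 9 of the members' 16 windows, 1 of them with captured DNA, and so more chances than a gene with 1 window. With 8 members these counts are too few to set against the background shares with any precision.

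Of the 16 control regions, 11 carried the member's name as a flanking gene. The lowest stood next to PAX7, 15.1 kb past its end at chr1:18763951-18764100, where GATA6-AS TFR1 had a log2 ratio of -4.42, which is 21.3-fold less signal with the oligo. MEG3 TFR1 had a control region over the same stretch, at chr1:18763851-18764100, with -2.18 or 4.52-fold. MEG3 TFR2 had none there, and its control region named for PAX7, of -1.12, lay before the gene at chr1:18627351-18627650. GATA6-AS TFR1 had a control region over the same bases, of -1.73 or 3.32-fold, that was not named for PAX7. Inside PAX7 there was 1 control region, of GATA6-AS TFR1, with -1.44 at chr1:18699151-18699500. PAX6 and NES had no control region by name with any oligo.

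For a wider view of the tissue, 45 other autosomal genes of the neural plate, neural tube and neural crest were taken as a list. Captured regions named 42 of the 45 with GATA6-AS TFR1, 37 in the MEG3 TFR1 list and 34 in that of MEG3 TFR2, and control regions named 27, 11 and 15, where the shares of all genes in the control lists were 53.9%, 28.5% and 26.2%. As overlapped genes it was 23, 16 and 10 in the captured lists. The captured counts read against the same background shares of 79.6%, 77.3% and 74.6% by any name and 50.5%, 43.8% and 42.1% by overlap. Against them the 42 named with GATA6-AS TFR1 are above, the 10 overlapped by name with MEG3 TFR2 are below, and the others lie near. By position, with 5 kb added to each side, it was 42, 33 and 32, against 79.4%, 74.0% and 70.7% of genes. The low count with MEG3 TFR2 was thus seen for overlapped names and not by that position count. Of the proneural relatives of NEUROG2, captured regions of every oligo named NEUROG1, NEUROG3 and ATOH1, while NEUROD1 was named with GATA6-AS TFR1 and MEG3 TFR1 but not with MEG3 TFR2. Near a gene end, within 1 kb, each of these genes had DNA captured by GATA6-AS TFR1. SOX2 was named by no captured region, although by position a GATA6-AS TFR1 region lay on its promoter window.

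For each oligo the highest overlapping region among these other genes was above the members' highest by name. The 3 genes with the highest overlapping regions with GATA6-AS TFR1 were LHX5, a LIM-homeobox relative of LHX2, at 9.23-fold, PAX5 at 7.33-fold and PAX2 at 6.57-fold. The 3 with MEG3 TFR1 were PAX5 at 21.3-fold, PROM1, which encodes the progenitor surface protein prominin, at 7.11-fold, and PAX2 at 5.68-fold. The 3 with MEG3 TFR2 were RAX, the retina and anterior neural fold homeobox factor, at 6.19-fold, PAX5 at 5.52-fold and PAX2 at 5.08-fold. PAX2 also had many regions, 43, 35 and 26 by name.

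Each member with captured regions from all 3 oligos was set beside the genes nearest to it, among 12242 genes that had all 3. Nearness was taken over the 3 highest captured log2 ratios, 1 per oligo, by the authors' names. The distance is Euclidean on the log2 scale over 3 values, so near neighbours are many. PAX6 (2.79, 1.88 and 2.24) was nearest to FGF3 at 0.0902 and ATPAF2 at 0.0915, and LHX2 to CACNB1 at 0.0774 and NOL9 at 0.0802. ZIC1 was nearest to CD40 at 0.0293 and CTDSPL2 at 0.0373, PAX3 to PLPBP at 0.0512 and ELP3 at 0.056, and PAX7 to HMGB1 at 0.068. SOX1, whose highest value came with MEG3 TFR2 (1.28, 1.25 and 2.20), was nearest to EIF4A3 at 0.0461 and DIO1 at 0.0573. NES, by name the member lowest with MEG3 TFR2 relative to the other oligos (2.68, 2.44 and 1.35), was nearest to LIN28A at 0.0573 and CSNK1G2 at 0.137. Those 3 NES values came from regions outside the gene. Over the gene by position the highest were 1.10, 1.76 and 1.41, so that GATA6-AS TFR1 was the lowest there. NEUROG2, which by name was also lowest with MEG3 TFR2 (2.03, 1.62 and 1.16), was nearest to TRIP13 at 0.0349 and GPBAR1 at 0.0689.

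By that highest value among regions bearing the gene's name, the order of the members with GATA6-AS TFR1 was PAX6, NES, LHX2, PAX7, NEUROG2, PAX3, SIX3, ZIC1 and SOX1, from 6.93-fold down to 2.43-fold. With MEG3 TFR1 it was PAX7, NES, LHX2, SIX3, PAX3, PAX6, ZIC1, NEUROG2 and SOX1, from 5.92-fold down to 2.37-fold. With MEG3 TFR2 it was PAX6, SOX1, PAX7, LHX2, PAX3, ZIC1, NES and NEUROG2, from 4.71-fold down to 2.24-fold. Neighbours in these orders can differ by less than 0.1 on the log2 scale, such as LHX2 at 2.38 and PAX7 at 2.31 with GATA6-AS TFR1, and with no error per region they cannot be told apart. The number of regions behind a highest value ranged from 1 to 47. Counting regions over the gene under other names would change the order with GATA6-AS TFR1, where SOX1 had one of 3.75-fold and would rise above SIX3 and ZIC1. PAX3 had one of 4.0-fold but would keep its place, below NEUROG2 at 4.07-fold.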

How the data were processed

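Per the submitters' processing notes, the authors used FastQC and BWA 0.7.15-r1140 with hg38. The region caller was not given in the sources used here, nor the library scaling. Each of the 6 deposited lists holds 1 log2 ratio per region and gene names; base 2 was read from the values, since 2 to that power gave a quotient of integers (denominator up to 400, tolerance 1e-09) in at least 98.17% of the regions checked in a list. Depth is unknown.

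A member's regions were those bearing its name. Plus and minus marks gave the side on which the gene lies, not its strand. Of 45813 names, 28224 (61.6%) matched the RefSeq table of GRCh38.p14, which also gave gene positions and promoter windows. Overlap was at least 1 bp. A log2 ratio is printed as a fold by raising 2 to it. Captured and control lists were described apart with no test, as no value per library exists. Genes and regions were named by rule: all members, their regions on promoter windows, the highest region of each captured list, places with several oligos, the 3 highest other genes per oligo and the 2 nearest genes, of which 1 is not reported here. Windows printed were those of at most 4 members with captured DNA, and LHX2 beside them. The members and gene lists were chosen with earlier results of these data known. The counting was tested on simulated data. Alternatives were stronger or narrower regions, joined regions, overlapped names, RefSeq positions, and leaving out PAX7. Genes on sex chromosomes were left out of the background, and no other per-sample column was present. Python 3.11.15, numpy 2.4.6, pandas 2.3.3 and matplotlib 3.10.9 were used.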

Additional observations from a re-analysis of the deposited data

How the results depend on the processing

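Of 81 alternative values, 38 stayed within 1.5 times the count or 0.1 of the log2 median, and 43 moved further. Values run in the order GATA6-AS TFR1, then MEG3 TFR1 and MEG3 TFR2 unless an oligo is named. Kept to log2 ratios of 1.5 or more in size, captured regions numbered 37, 28 and 20, the medians were 1.78, 1.87 and 1.77 by construction, other neuroectoderm genes numbered 25, 21 and 19, regions over PAX7 numbered 22, 15 and 9, and control regions were 4 with GATA6-AS TFR1 and 1 with MEG3 TFR2. The stronger 50% of each list gave 52, 34 and 22 captured regions. Regions of at most 400 bp numbered 41 with GATA6-AS TFR1 and 38 with MEG3 TFR1, with medians of 1.57 and 1.56. Overlapped names only gave 3 members and 21 captured regions with MEG3 TFR2, 23, 16 and 10 other genes, and 2 and 1 control regions with GATA6-AS TFR1 and MEG3 TFR2. Counting over the RefSeq gene gave 21 captured regions with MEG3 TFR2 and 5, 1 and 1 control regions. With 1 kb added to each side of the gene in place of the promoter window, 9, 7 and 6 members had a captured region, and within 1 kb of either gene end 8, 6 and 1. Without PAX7 captured regions numbered 38, 28 and 17, and the medians with MEG3 TFR1 and MEG3 TFR2 were 1.35 and 1.31. Leaving out PAX7, counting over the RefSeq gene, the gene-end count and the PAX7 alternatives were chosen after seeing the data. Apart from medians of regions selected for height, the cause was not tested. No paired analysis was possible because the lists hold no value per library, and leaving out a library could not be run for the same reason.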
